A study of Mus musculus with 4 samples.

Results

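The Slc25 family of mitochondrial carriers was described in RNA bound by the ribosomal protein RPS2 and in total RNA of cultured mouse cortical neurons. Members were the protein-coding genes named Slc25a followed by a number in the GENCODE M21 annotation, matched to the count tables by Ensembl identifier. There were 47 members among the 31053 genes in the tables, and 36 of them were among the 12336 genes that passed the filter on low counts and were tested. The rule for members used names only and none of the measurements, although earlier results of these data were known when it was chosen.

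The samples were primary cortical neurons of genotype WT, grown from C57BL/6J embryos of late gestation and treated early in culture with floxuridine, which limits dividing cells. Enhanced crosslinking and immunoprecipitation (eCLIP) fixes RNA to protein in the cell, cuts the RNA with RNase I and sequences what an antibody pulls down. Here RPS2 of the small subunit was the target of the antibody, and 2 IP libraries were set beside 2 libraries of total RNA; the study used IP over total RNA as a measure of how heavily each mRNA was engaged by ribosomes. By the labels the IP samples had rRNA depletion and the total RNA samples had no treatment, so that step and the IP cannot be told apart. The labels do not say whether replicates 1 and 2 were separate cultures, and p-values then measure only the spread between these libraries.

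Most Slc25 proteins sit in the inner mitochondrial membrane and move nucleotides, phosphate, amino acids, carboxylates and cofactors between the cytosol and the matrix. They are encoded in the nucleus, made on cytosolic ribosomes and inserted through the TOM70 and TIM22 import route. The fold is a repeat of one module, and each repeat carries a short signature that begins with proline and ends with a basic residue. In neurons the family is best known for ADP/ATP exchange and for carrying aspartate and glutamate. Some members named as Slc25 are known from other membranes, Slc25a46 from the outer mitochondrial membrane and Slc25a17 from peroxisomes, and both were kept as members.

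The signature was searched in the annotated coding sequence of each of the 47 members, as proline, any residue, an acidic residue, any pair of residues and then lysine or arginine. It was found 3 times in 27 members, 2 times in 12 members and 1 time in 5 members. Slc25a46, Slc25a51 and Slc25a53 held no match. The first match is printed for the families that the results turn on, so that close relatives can be told apart by eye. Capitals mark the 6 codons of the signature, with 6 coding bases on each side in lower case, and all runs were read 5′ to 3′ on the strand of the gene from GENCODE M21 transcripts on mm10.
Slc25a4: gtcgccCCGATCGAGAGGGTCAAActgctg
Slc25a5: gtagcaCCCATCGAGAGGGTCAAGctgctg
Slc25a31: gtggcgCCCATCGAGCGTGTGAAGctgctg
Slc25a22: gtgttcCCCATCGACCTGGCTAAGacacgg
Slc25a18: gtgtttCCCATTGACCTTGCCAAGacccga
Slc25a14: actttcCCTGTGGATCTTACTAAAacacgg
Slc25a30: acatttCCAATTGATTTAACTAAGacacgg
Slc25a27: acctttCCCCTCGATCTCACAAAAacccga

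These runs lay within single coding exons. For the ADP/ATP carriers they were at chr8:46210818-46210847 on the minus strand in exon 1 of Slc25a4, at chrX:36795806-36795835 on the plus strand in exon 1 of Slc25a5 and at chr3:40709106-40709135 on the plus strand in exon 1 of Slc25a31. For the glutamate carriers they were at chr7:141433941-141433970 on the minus strand in exon 3 of Slc25a22 and at chr6:120786089-120786118 on the plus strand in exon 3 of Slc25a18. For the uncoupling protein-like carriers they were at chrX:48630891-48630920 on the plus strand in exon 4 of Slc25a14, at chr14:75775111-75775140 on the minus strand in exon 3 of Slc25a30 and at chr17:43664234-43664263 on the minus strand in exon 2 of Slc25a27. The proteins of Slc25a4 and Slc25a5 were 89.6% identical over 298 aligned residues, yet their coding sequences were 77.4% identical and the printed runs differed at 4 of 30 bases. For Slc25a22 and Slc25a18 the protein identity was 67.8% and the runs differed at 6 bases. Slc25a14 shared 79.7% of residues with Slc25a30 and 39.6% with Slc25a27, with 8 and 9 differing bases in the runs.

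Library totals were 16460545 and 9941486 counts for the IP and 5281196 and 4899718 counts for total RNA, replicate 1 first here and in every pair of values that follows. The family took 22521 and 23261 of the IP counts and 6812 and 11543 of the total RNA counts. As a share of all counts this was 0.137% (95% Wilson interval 0.135 to 0.139) and 0.234% (0.231 to 0.237) in the IP, against 0.129% (0.126 to 0.132) and 0.236% (0.231 to 0.240) in total RNA. One gene annotated as a lincRNA, Gm42418, held between 15.3% and 42.6% of the counts of a library. Its share was 42.6% for IP replicate 1, 27.9% for IP replicate 2, 39.8% for total RNA replicate 1 and 15.3% for total RNA replicate 2. The paper used counts of Gm42418 as a filter on its single cells. Whether the counts of Gm42418 here came from rRNA was not tested. Scaling by TMM lowered the weight of that gene. On the TMM scale, in CPM (counts scaled to the effective library size), the summed level of the family was 1628 and 2089 in the IP against 1517 and 1897 in total RNA. Neuron markers summed to between 3199 and 3831 CPM, astrocyte markers to between 424 and 1621 CPM and oligodendrocyte markers to between 35.2 and 45.7 CPM. Endothelial markers reached at most 1.64 CPM, with Cldn5 at 0 in all 4 libraries. In bulk samples, fewer cells of a type and less RNA per cell cannot be told apart.

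The mRNA pool of the family was dominated by a few carriers of energy metabolism. Per length, in CPM per kilobase of exon (RPKM), Slc25a4, Slc25a5, Slc25a22, Slc25a23 and Slc25a3 together made up between 65.2% and 66.0% of the summed level in each of the 4 libraries. Slc25a4, the ADP/ATP carrier also called ANT1, stood at 161 and 190 RPKM in the IP and at 155 and 192 RPKM in total RNA. Next came Slc25a5, the second ADP/ATP carrier (ANT2), at 51.2 and 68.3 RPKM in the IP and 40.9 and 55.6 RPKM in total RNA. The mitochondrial glutamate carrier Slc25a22 had 37.1 and 66.7 RPKM in the IP and 30.4 and 52.1 RPKM in total RNA. Slc25a4 lay above every other member in each library, while the range of Slc25a22 overlapped those of Slc25a5 and Slc25a23. The calcium-regulated ATP-Mg/phosphate carrier Slc25a23 was at 37.9 and 28.3 RPKM in the IP and 40.2 and 26.6 RPKM in total RNA, and the phosphate carrier Slc25a3 at 24.4 and 36.3 RPKM in the IP and 21.6 and 31.7 RPKM in total RNA. Of the 47 members, 22 had a mean of at least 10 CPM.

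**Figure D1:**
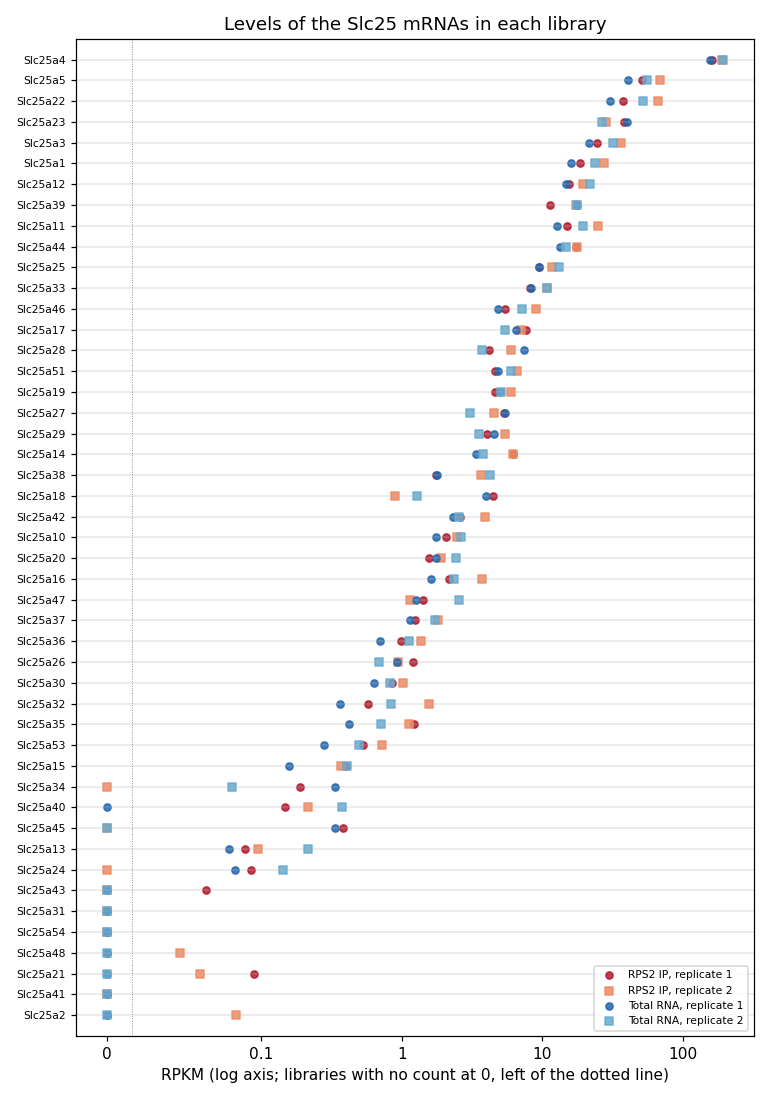
Level of each of the 47 Slc25 mRNAs in RPKM on a log axis, with 1 point for each of the 4 libraries and libraries without a count at the left edge. Slc25a4 is at the top at 155 to 192 RPKM, and Slc25a31, Slc25a54 and Slc25a41 have no count in any library.

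The 11 members that were not tested had few or no reads. Slc25a31, the third ADP/ATP carrier, known from testis, had 0 counts in every library, as did Slc25a41 and Slc25a54. The limit that 0 counts allow, taken as 3 counts per library, was 0.217 and 0.269 CPM in the IP and 0.668 and 0.493 CPM in total RNA. Slc25a2, Slc25a43 and Slc25a48 had 1 count over all 4 libraries. Slc25a13 (citrin), an aspartate/glutamate carrier best known from liver, had 14 counts, Slc25a24 had 8, Slc25a21 had 8, Slc25a34 had 12 and Slc25a45 had 18. Levels this low do not allow a ratio of IP to total RNA to be read.

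RPS2 IP was compared with total RNA to ask which carrier mRNAs were over-represented on ribosomes. In a fit with the replicate number as a block, 3 members passed an adjusted p under 0.05 as higher in the IP and 0 as lower. They were Slc25a14, Slc25a22 and Slc25a5. By the same rule 6.63% of all genes tested were called higher and 7.55% lower, so 3 of 36 members is near the background. At an unadjusted p under 0.05, 9 members were higher and 1 was lower (25.0% and 2.78% of members, against 12.9% and 13.2% of all genes). Without the block the edgeR test called 0 members and 0 of all genes, with 1 member (Slc25a14) and 349 genes at an unadjusted p under 0.05. DESeq2 with the block also called 0 members, against 158 genes higher and 382 lower over all genes. It gave no adjusted p to 7653 of the 12336 genes, Slc25a14 among them, so this 0 does not cover every member. In that fit Slc25a22 had an adjusted p of 0.0801 and Slc25a5 one of 0.259. In this comparison 2 of the 4 tested astrocyte markers were also called higher, Aqp4 by 0.49 and Slc1a3 by 0.34 on the log2 scale, and their part in the members' values was not tested.

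Most members leaned towards the IP by a small amount. Of the 36 tested, 26 had a log2 fold change above 0 and 10 below, so 72.2% lay above 0, against 51.3% of all genes tested. Their median was 0.22, with quartiles at -0.0007 and 0.36, while the median of all genes was 0.011. Within replicate pair 1 the median log2 ratio of the members was 0.17 and within pair 2 it was 0.25, against 0.012 and 0.0075 for all genes. Both pairs were above 0 for 18 members and both below 0 for 3 members, against 34.3% and 32.2% of all genes. Both IP libraries lay above both total RNA libraries for 8 members and below them for 1 member, against 16.9% and 14.9% of all genes, and the groups overlapped for 27 members. For 30 of the 36 members the log2 fold change was smaller than 0.5 in size.

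The members' median moved with the counts behind it, with sequence composition and with single libraries. The 12 members with at least 100 counts in every library had a median of 0.12, against -0.061 for the 5003 genes with such counts, and 66.7% of them lay above 0, against 41.4% of those genes. With an offset for GC content and exonic length the median of the 36 members was 0.12 and that of all genes -0.0092. Across members the log2 fold change had a Spearman correlation of -0.48 with GC content (n = 36). Across all tested genes with a known GC content it was -0.32 (n = 12328). The genes share the same 4 libraries and are not independent. Leaving out IP replicate 2 took the members' median to -0.10 and leaving out total RNA replicate 1 took it to 0.034, in fits that could not hold the block.

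**Figure D2:**
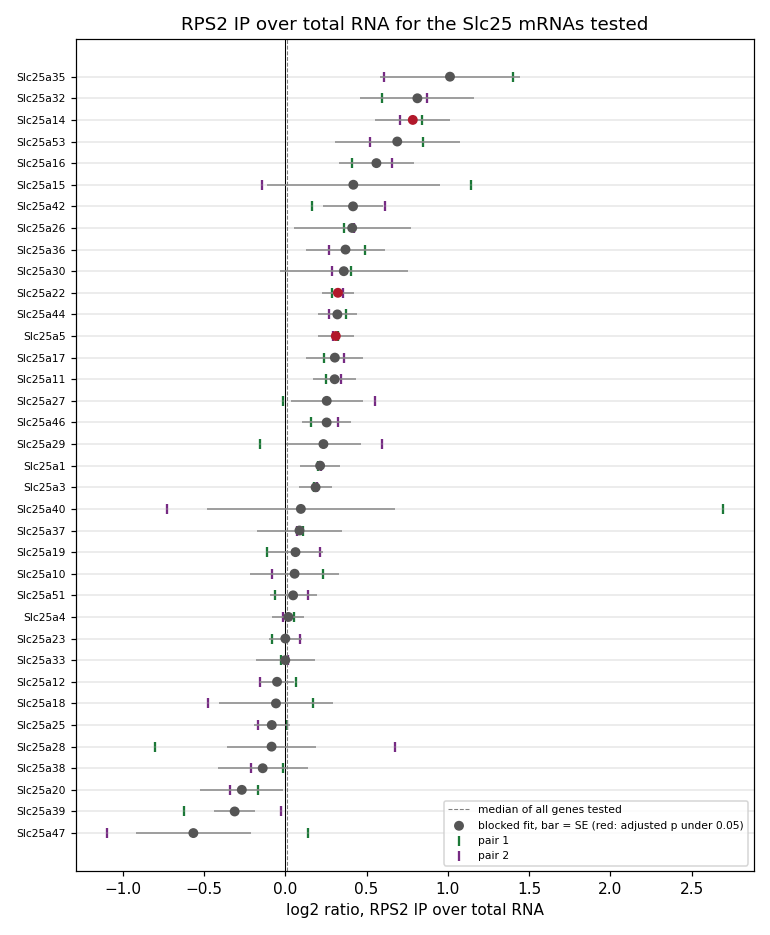
Log2 ratio of RPS2 IP over total RNA for the 36 Slc25 mRNAs tested, with the blocked fit as points, its SE as bars and the ratio within each replicate pair as ticks. Slc25a14, Slc25a22 and Slc25a5 are drawn in red, and 26 of the 36 points lie to the right of 0.

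**Figure D3:**
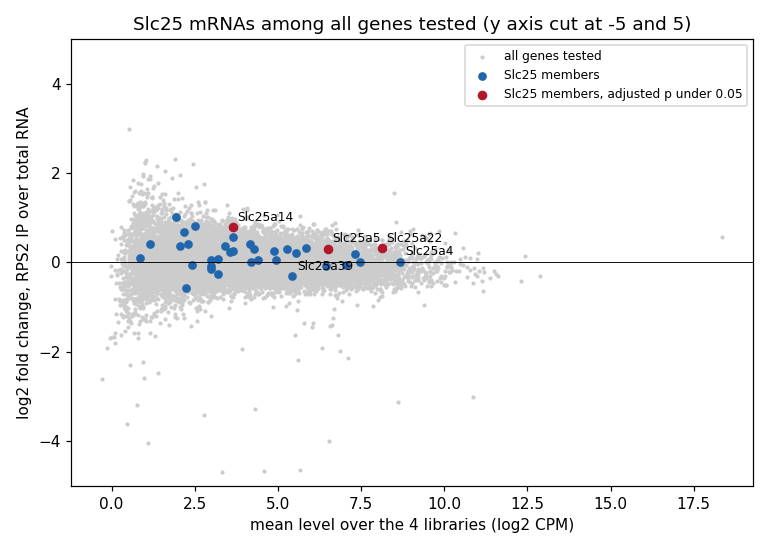
Log2 fold change of RPS2 IP over total RNA against mean level in log2 CPM for all 12336 genes tested in grey, with the 36 Slc25 members on top. The members lie within the cloud of all genes, and the 3 called members are in red.

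Slc25a14, an uncoupling protein-like carrier of brain also known as UCP5 or BMCP1 (ENSMUSG00000031105, mm10 chromosome X, 48623413 to 48662294, plus strand), had the highest ratio among members with at least 10 CPM. Its level was 14.5 and 14.6 CPM in the IP and 8.02 and 8.88 CPM in total RNA. Both IP libraries were above both total RNA libraries, and the replicates of each group were close. These values rest on 201 and 163 IP counts and on 36 and 54 total RNA counts. The log2 fold change was 0.78 ± 0.23 (SE), with an adjusted p of 0.00873 in edgeR's blocked fit and log2 ratios of 0.84 and 0.71 within the pairs. Without the block the same difference had an unadjusted p of 0.025 and an adjusted p of 1.00. With the GC and length offset it was 0.55 with an adjusted p of 0.139.

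Slc25a22, which carries glutamate into mitochondria (ENSMUSG00000019082, chromosome 7, 141429744 to 141437892, minus strand), differed more between replicates than between IP and total RNA. It was at 223 and 400 CPM in the IP and at 182 and 312 CPM in total RNA. In both pairs the IP was the higher library, yet the groups overlapped because replicate 2 was high in both. Its log2 fold change in edgeR's blocked fit was 0.32 ± 0.099 (SE), at an adjusted p of 0.0124. The pair ratios were 0.29 and 0.36. The GC and length offset gave 0.53 and an adjusted p of 2.16e-05. The call was lost with library size scaling alone, where the value was 0.24, and the sign turned when IP replicate 2 (-0.16) or total RNA replicate 1 (-0.0060) was left out, both in fits without the block.

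Slc25a5, the ADP/ATP carrier of dividing and non-muscle tissue (ENSMUSG00000016319, chromosome X, 36795651 to 36798807, plus strand), was at 84.3 and 112 CPM in the IP and 67.2 and 91.6 CPM in total RNA. The IP was higher within each pair, and the groups overlapped across pairs. The log2 fold change was 0.31 ± 0.11 (SE) with an adjusted p of 0.0377 in edgeR's blocked fit, and the pair ratios were 0.33 and 0.29. This call was the least stable of the 3. It held in 5 of 10 blocked fits, counting the reported one, against 8 of 10 for Slc25a22 and 8 of the 9 that gave an adjusted p for Slc25a14. With the GC and length offset the value fell to 0.044 with an adjusted p of 0.889. Of the 50-base stretches in its transcripts, 33.8% also occur in other annotated genes, most of them processed pseudogenes such as Gm5560, and reads that align to several loci were not counted, so the level of Slc25a5 is uncertain. No such stretch was found for Slc25a4.

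**Figure D4:**
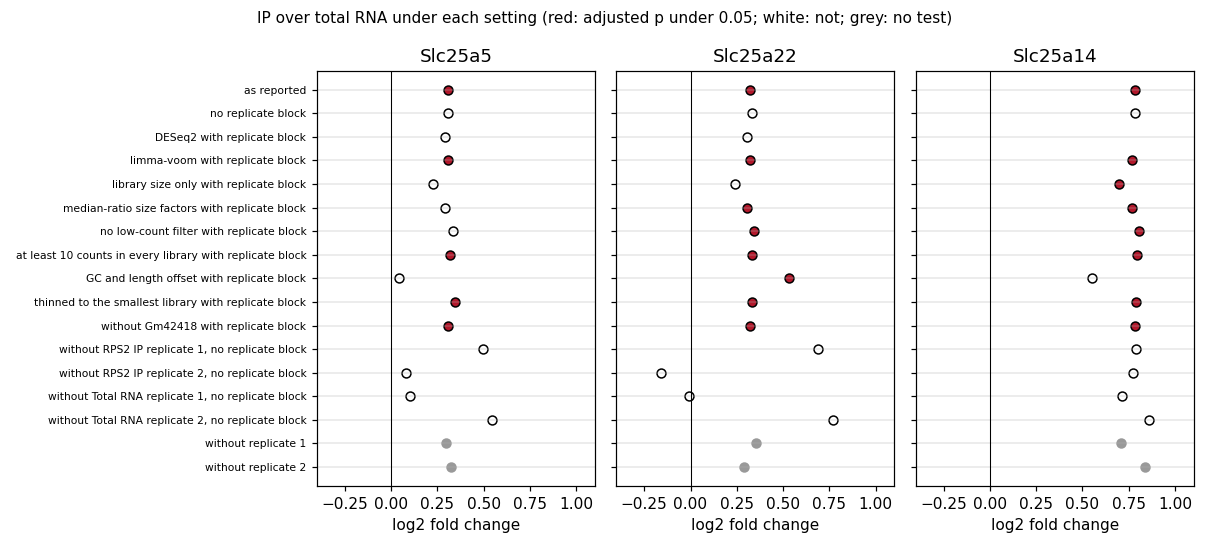
Log2 fold change of Slc25a5, Slc25a22 and Slc25a14 under each way of processing the counts, with red points at an adjusted p under 0.05, white points above it and grey points where a single pair allowed no test. Slc25a14 stays between 0.55 and 0.86, while Slc25a22 runs from -0.16 to 0.77.

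The most abundant carrier did not share the lean. Slc25a4, the ADP/ATP carrier of heart, muscle and brain (chromosome 8, 46206797 to 46211284, minus strand), was at 379 and 446 CPM in the IP and 365 and 451 CPM in total RNA. Its log2 fold change was 0.018 ± 0.098 with an adjusted p of 0.940 in edgeR's blocked fit, so a difference was not detectable. Under library size scaling alone the sign was negative at -0.065. Slc25a23 was at 201 and 150 CPM in the IP and 213 and 141 CPM in total RNA, with a log2 fold change of -0.00060 ± 0.10 and an adjusted p of 0.999 in edgeR. Slc25a3, which brings phosphate into the matrix for ATP synthesis, was at 136 and 201 CPM in the IP and 120 and 176.05 CPM in total RNA, higher in the IP in both pairs by 0.18 and 0.19, with an adjusted p of 0.239 in edgeR.

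Among members with at least 10 CPM, a pair of coenzyme A carriers followed Slc25a14 at the high end. Slc25a16, linked to coenzyme A in the matrix, was at 10.4 and 17.96 CPM in the IP and 7.79 and 11.3 CPM in total RNA. Its log2 fold change was 0.56 ± 0.23 with an adjusted p of 0.0824 in edgeR, with the groups overlapping. Slc25a42, which carries coenzyme A and adenosine 3′,5′-diphosphate, was at 15.5 and 23.5 CPM in the IP against 13.8 and 15.3 CPM in total RNA, with both IP libraries above both total RNA libraries. Its log2 fold change was 0.42 ± 0.19 with an adjusted p of 0.125 in edgeR, and 0.56 with an adjusted p of 0.0399 with the GC and length offset.

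At the low end, again among members with at least 10 CPM, no call was made. Slc25a39, a carrier needed for glutathione in mitochondria, was the member with both IP libraries below both total RNA libraries, at 31.2 and 47.4 CPM against 48.3 and 48.3 CPM. Its log2 fold change was -0.31 ± 0.13 with an adjusted p of 0.0787 in edgeR, and nearly all of the difference came from pair 1, where the ratio was -0.63, against -0.027 in pair 2. The ATP-Mg/phosphate carrier Slc25a25 was at 74.6 and 92.5 CPM in the IP and 74.1 and 104 CPM in total RNA, a log2 fold change of -0.084 ± 0.11. Slc25a12 (aralar), the aspartate/glutamate carrier of the neuronal malate-aspartate shuttle, was at 113 and 143 CPM in the IP and 108 and 160 CPM in total RNA, a log2 fold change of -0.052 ± 0.10. For both the groups overlapped and the pairs went in opposite directions.

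Values just outside the threshold were looked up after the results were seen. Slc25a44, linked to the uptake of branched-chain amino acids by mitochondria, was at 61.9 and 63.3 CPM in the IP and 47.9 and 52.4 CPM in total RNA, with a log2 fold change of 0.32 ± 0.12 and an adjusted p of 0.0507 in edgeR. It was called with a filter of at least 10 counts in every library and after thinning to the smallest library. Slc25a35, Slc25a32 and Slc25a53, under 10 CPM, had log2 fold changes of larger size with wide errors. Slc25a35 was at 1.01 ± 0.43, Slc25a32, a carrier of folate and FAD, at 0.81 ± 0.35, and Slc25a53 at 0.69 ± 0.38, with adjusted p between 0.102 and 0.245 in edgeR. In the other direction Slc25a47, also under 10 CPM, had the lowest log2 fold change of the 36 members at -0.57 ± 0.35, with an adjusted p of 0.312 in edgeR. Its level was 4.19 and 3.41 CPM in the IP against 3.79 and 7.56 CPM in total RNA, so the groups overlapped.

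Grouped by substrate, the carriers of coenzyme A, NAD, FAD, thiamine pyrophosphate and S-adenosylmethionine had 7 of 7 tested members above 0. Their median log2 fold change was 0.41 with values from 0.047 to 0.81, and 0 were called. The uncoupling protein-like carriers Slc25a14, Slc25a27 and Slc25a30 had 3 of 3 above 0 with a median of 0.36, and 1 was called. The di- and tricarboxylate carriers, Slc25a1 for citrate, Slc25a10 for dicarboxylates and Slc25a11 for 2-oxoglutarate, had 3 of 3 above 0 with a median of 0.21 and 0 called. Of the aspartate/glutamate and glutamate carriers, 1 of 3 tested was above 0, namely Slc25a22, which was called. The ATP-Mg/phosphate carriers had 0 of 2 above 0, with a median of -0.042. Groups of this size allow no statement beyond their members.

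Relatives of one substrate class differed widely in level. Per length, Slc25a4 made up 75.9% (95% Wilson interval 74.7 to 77.0) and 73.5% (72.3 to 74.7) of the Slc25a4 and Slc25a5 total in the IP, against 79.2% (77.1 to 81.1) and 77.5% (75.9 to 79.1) in total RNA. Its share was lower in the IP within each pair, although the interval of IP replicate 1 overlapped that of total RNA replicate 2. Intervals here cover counting error only. They leave out the reads of Slc25a5 that align to several loci and were not counted, so the share of Slc25a4 may be too high. Of the 50-base stretches of Slc25a5, 33.8% also occur in other annotated genes. Slc25a12 made up between 99.0% and 99.6% of the pair it forms with Slc25a13. Slc25a39 made up between 97.9% and 100% of its pair with Slc25a40, and Slc25a33, a pyrimidine nucleotide carrier, between 88.8% and 92.2% of its pair with Slc25a36. The mitoferrin Slc25a37 was the smaller part, between 13.5% and 31.8%, beside Slc25a28, and Slc25a16 and Slc25a42 were near balance at 41.4% to 48.8% for Slc25a16.

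The pair of glutamate carriers differed strongly between the replicates. Slc25a22 was 89.3% of the pair in IP replicate 1 and 88.5% in total RNA replicate 1, against 98.7% and 97.6% in replicate 2, so its share was slightly higher in the IP within each pair. Per length the ratio of Slc25a22 to Slc25a18 was 8.32 in the IP and 7.68 in total RNA of replicate 1, and 74.7 and 40.4 in those of replicate 2, where Slc25a18 had 19 and 15 counts. Slc25a18, the second glutamate carrier, known in brain mainly from astrocytes, was at 8.53 and 7.57 CPM in the IP and total RNA of replicate 1 and at 1.71 and 2.47 CPM in those of replicate 2. Its log2 difference of replicate 2 over replicate 1 was -2.18 in the IP and -1.53 in total RNA, and both libraries of replicate 1 were above both of replicate 2. Summed astrocyte markers were at 1621 and 1367 CPM in replicate 1 and 452 and 424 CPM in replicate 2, with none of the 5 markers at 0 in all libraries, and summed microglia markers at 60.1 and 58.8 CPM against 6.83 and 4.93 CPM. Their part in the values of Slc25a18 was not tested.

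Across the family, replicate 2 was mostly the higher one. It lay above replicate 1 in both the IP and total RNA for 26 of the 36 members and below it in both for 5, against 37.4% and 38.4% of all genes tested. The median log2 difference of the members was 0.41 in the IP and 0.47 in total RNA, against -0.0021 and -0.014 for all genes. These medians are larger than the median difference between IP and total RNA. Slc25a23 went the other way, at -0.42 in the IP and -0.60 in total RNA, which moved its share of the pair with Slc25a25 from 80.0% and 81.0% in replicate 1 to 70.6% and 66.8% in replicate 2. Slc25a32 had a log2 difference of 1.40 in the IP and 1.12 in total RNA. Slc25a38, a glycine carrier needed for haem synthesis, had one of 1.02 in the IP and 1.22 in total RNA. With 1 library of each kind per replicate there is no test of this difference.

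**Figure D5:**
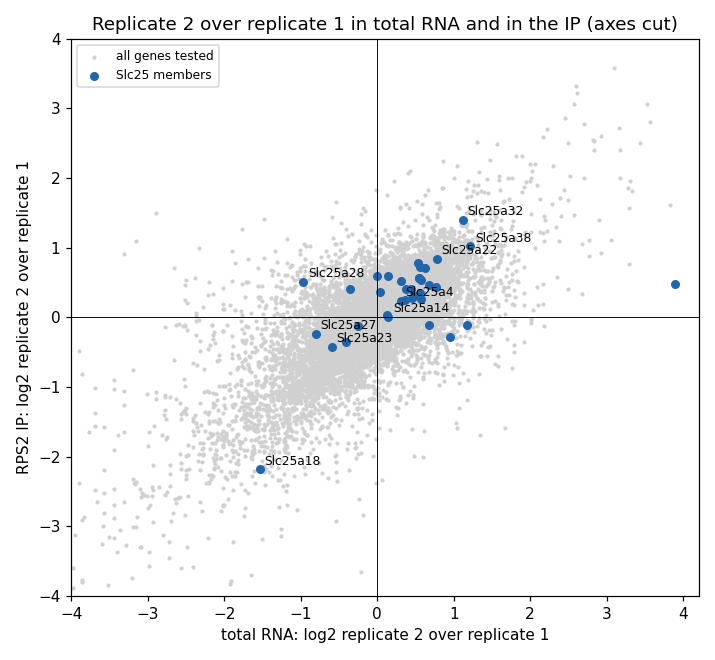
Log2 difference of replicate 2 over replicate 1 in total RNA on the horizontal axis and in the RPS2 IP on the vertical axis, for all genes tested in grey and the 36 Slc25 members in blue. Most members are in the upper right, while Slc25a18 is at -1.53 and -2.18; the member at the right edge is Slc25a40, which had 0 counts in total RNA replicate 1.

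Genes that work with the carriers were read from lists chosen by function and not by how they moved, with earlier results of these data known. The carrier import route held 16 listed genes, of which 14 were tested, 5 were called higher in the IP and 0 lower, so 35.7% of those tested were called higher, against 6.63% of all genes higher and 7.55% lower. At an unadjusted p under 0.05, 8 of the 14 were higher and 0 lower. Of the 5 called at an adjusted p under 0.05 in edgeR's blocked fit, Tomm20, a receptor of the outer membrane, was at 0.53 ± 0.13. Tomm5, a small subunit of the TOM complex, was at 1.22 ± 0.38. The value of Tomm5 rests on 78 and 70 IP counts and on 8 and 20 total RNA counts. The called chaperones of the intermembrane space were Timm8b at 0.91 ± 0.23, Timm10 at 0.68 ± 0.22 and Timm13 at 0.43 ± 0.15. For Timm10 the pair ratios were 1.15 and 0.37. Timm9 at 0.087 ± 0.28 and Timm10b at 0.65 ± 0.69, of the same list, were not called. The pair ratios of Timm10b were -1.08 and 3.17. The median of the 14 was 0.41 and 13 were above 0. Without the block 0 of the 14 were called. DESeq2 with the block also called 0, though it left 7653 of the 12336 genes without an adjusted p. The other blocked fits at an adjusted p under 0.05 called between 3 and 5. Of the family members under other symbols, 3 were tested and Mtch2, an insertase of the outer membrane, was higher at 0.44 ± 0.14, with an adjusted p of 0.0137 in edgeR's blocked fit and an unadjusted p of 0.318 without the block. The 3 VDAC channels of the outer membrane, the 14 other inner membrane transporters and the 4 enzymes of the malate-aspartate shuttle that were tested had 0 calls in edgeR's blocked fit. At an unadjusted p under 0.05 in that fit, 2 of the 3 VDAC genes were higher, 1 of the 14 transporters was higher and 1 lower, and 0 of the 4 shuttle enzymes passed, against 12.9% of all genes higher and 13.2% lower.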

How the data were processed

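The data were 2 RPS2 IP and 2 total RNA libraries of primary mouse cortical neurons, grouped by their titles. The deposited files hold raw counts per gene and the exonic length of each gene. Per the file headers and the study's methods, the authors trimmed adapters, aligned single-end reads end to end to mm10 with STAR, keeping reads at up to 10 loci, and made the counts with featureCounts 1.5.3 in stranded mode, without counting reads at several loci or in several genes. No removal of PCR duplicates was named.

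The test was that of edgeR 4.0.16 in R 4.3.3: filterByExpr, TMM, and the two-sided quasi-likelihood test with the replicate number as a block, adjusted by Benjamini-Hochberg over 12336 genes at 0.05. Total RNA was set aside from the same samples before the IP, and same-numbered libraries deviated from their group means with a correlation of 0.733 over all genes, so the numbers were read as pairs. The fit has 1 residual degree of freedom and all genes share the trended dispersion (biological coefficient of variation 7.93%, or 29.7% without the block). SE is the log2 fold change divided by the root of F. Ratios within a pair are differences of log2 CPM with a prior count of 2. RPKM, CPM and medians were computed here.

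Members, lists and tests were chosen with earlier results of these data known. Named genes were those called, the 5 highest in RPKM, the 3 highest and 3 lowest fold changes with at least 10 CPM, and relatives within a substrate class. Alternatives used DESeq2 1.42.0, limma-voom 3.58.1, other scaling and filters, thinning, a GC and length offset (mgcv 1.9.3), removal of Gm42418 (chosen after seeing the data), a threshold of 0.01 and leaving out libraries. Scripts were tested on simulated counts. Markers of excitatory cortical neurons summed to between 877 and 943 CPM, GABAergic markers to between 1049 and 1181 CPM and oligodendrocyte precursor markers to between 6.02 and 26.1 CPM. Of the members, 1 (Slc25a51) held an annotated small RNA in its counted exons.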

Additional observations from a re-analysis of the deposited data

How the results depend on the processing

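The count of 3 members called higher in the IP was 0 without the replicate block, 0 with DESeq2 and the block (which left 7653 of 12336 genes without an adjusted p), 1 with library size scaling alone, 1 at an adjusted p under 0.01, and 0 to 0 when each library was left out in turn, in fits without the block that treat the lone library of a group as varying like the other group. The count of members called lower was 0 in every alternative run. Over all genes, 818 were higher and 931 lower as reported, 0 and 0 without the block, 283 and 878 with library size scaling alone, where the all-gene median was -0.073 in place of 0.011, and 473 and 383 with the GC and length offset. The members' median log2 fold change of 0.22 was 0.14 with library size scaling alone, 0.12 with the GC and length offset, and from -0.10 to 0.39 when 1 library was left out (-0.10 without IP replicate 2, 0.034 without total RNA replicate 1), with 0.17 and 0.25 when only pair 1 or pair 2 was kept. Slc25a4 turned to -0.065 with library size scaling alone and to -0.11 with the GC and length offset, and ran from -0.13 to 0.18 with a library left out. Slc25a23, near 0 as reported, was 0.022 with no low-count filter, 0.0092 with at least 10 counts in every library, 0.13 with the GC and length offset and 0.035 after thinning, and ran from -0.28 to 0.31 with a library left out. Slc25a25 was 0.054 with the offset and, with a library left out, ran from -0.31 to 0.17, with 0.053 without IP replicate 1. Leaving out a library gave ranges of -0.16 to 0.77 for Slc25a22 and -0.13 to 0.49 for Slc25a3, with -0.0060 and -0.064 without total RNA replicate 1, and -0.32 to 0.24 for Slc25a12, with 0.095 without IP replicate 1. The cause of these changes was not tested. Of 151 tested alternative values for the single members named by the rule, 110 kept their sign and side of the threshold, 21 kept their sign and lost the call, 1 kept its sign and gained the call and 19 changed sign. Of 22 values from 1 replicate pair, which have no test, 18 kept their sign and 4 changed it (Slc25a4, Slc25a23, Slc25a25 and Slc25a12). Without the block every call among the members and the genes that work with them was lost. With 2 libraries a group, 11 of 47 members too low to test and adjusted p-values that lean on a dispersion shared by all genes, differences of the size seen here for most members were not detectable.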

Other observations

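Some members lie close together in the genome. Slc25a29 and Slc25a47 are transcribed away from each other on chromosome 12 with 162 bases between them. Slc25a29 was at 10.6 and 14.0 CPM in the IP and 11.8 and 9.21 CPM in total RNA, and Slc25a47 at 4.19 and 3.41 CPM in the IP and 3.79 and 7.56 CPM in total RNA. Slc25a41, with 0 counts in every library, lies 2056 bases from Slc25a23 on the same strand of chromosome 17, and Slc25a23 was between 141 and 213 CPM. Slc25a54 and Slc25a24 lie 6461 bases apart on chromosome 3 and both were low, with 0 and 8 counts over all 4 libraries. Slc25a43, with 1 count in all, lies 18448 bases from Slc25a5 on chromosome X, which was between 67.2 and 112 CPM. These pairs were looked at after the values were seen.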
